A study of Mus musculus with 8 samples.

Results

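The miR-200 family (mmu-miR-200a, mmu-miR-200b, mmu-miR-200c, mmu-miR-141 and mmu-miR-429, written below without the species prefix) and mmu-miR-203 are 6 of the 567 mouse miRNAs on the array, and were measured in livers of db/db and db/+ mice. They were chosen by name, with their values in these samples already known, so every difference between the strains given for them is a description. They were part of a fit over the whole array, and its calls are given for them as counts that support nothing further. Each of 8 arrays carried total RNA from liver, taken here as 1 liver per array, although the label of db/+ replicate 1 says livers. Of the arrays, 4 were from diabetic db/db mice, which are homozygous for a mutation of the leptin receptor and are described as C57BL/KsJ. These mice become obese and insulin resistant. The other 4 were from nondiabetic db/+ mice, which carry 1 mutant copy. By the series text each strain was represented by 4 animals, whose age and sex the sources used here do not give. The mutation is carried throughout the body, so the comparison is not one of hepatocytes alone, and the liver was measured whole.

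The miR-200 family is known for holding epithelial cells in the epithelial state by repressing the transcription factors ZEB1 and ZEB2, which in turn repress the family's own genes. In the liver, the family is best known from the epithelium of the bile ducts. miR-203 is known from skin, where it limits the self-renewal of keratinocytes by repressing p63, and it is found in other epithelia as well. A miRNA finds its targets mainly through its seed, bases 2 to 8 counted from the 5′ end.

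The mature sequences show why the 6 fall into 3 groups. They are RefSeq's, from its table for GRCm38.p6, in which all 6 were found, and the seed is in capitals.
miR-200b: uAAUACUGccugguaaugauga
miR-200c: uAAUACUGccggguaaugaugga
miR-429: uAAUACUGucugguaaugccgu
miR-200a: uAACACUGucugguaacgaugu
miR-141: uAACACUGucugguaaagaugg
miR-203: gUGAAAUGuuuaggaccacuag

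miR-200b, miR-200c and miR-429 share one seed, and among the 1679 mature mouse miRNAs in the table only these 3 have it. miR-200a and miR-141 share the other seed of the family, which differs from the first by U4C (miR-200b's base first, position counted from the 5′ end) and is found in these 2 alone. The seed of miR-203 is found in miR-203 alone. Over the first 22 bases, miR-200b and miR-200c had 20 identical bases and differed by U11G and A22G. miR-200a and miR-141 also had 20 identical bases and differed by C17A and U22G. How far a probe for one member also captures such a close relative was not tested.

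The genes lie in 3 places. In mm9 coordinates, as the array files give them, the stretch targeted by the probes for miR-200b is chr4:155429794-155429810, that for miR-200a is chr4:155429020-155429037 and that for miR-429 is chr4:155428025-155428043, so the targets of the 3 lie within 1786 bases. RefSeq places this cluster within the long non-coding RNA gene Gm13648, between Ttll10 and 9430015G10Rik. The targets for miR-200c, chr6:124668342-124668357, and for miR-141, chr6:124667935-124667951, lie within 423 bases, between Phb2 and Ptpn6. The target for miR-203 is chr12:113369142-113369159, between Aspg and Kif26a. None of the 6 lies within a protein-coding gene of that table.

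The arrays differed in brightness far more in db/+ than in db/db. Each array was divided by a scale factor, taken as the median of the 89 miRNAs that every array detected. That factor ranged from 0.210 to 5.63 in db/+, a 26.8-fold range, and from 0.847 to 1.06 in db/db, a 1.26-fold range. The dimmest array, db/+ replicate 4, had 91 detected miRNAs and the brightest, db/+ replicate 1, had 255. The db/db arrays had 133 to 166. All 8 arrays were on 1 slide, with db/db in one row and db/+ in the other, so the row and the strain cannot be told apart. miR-122, the main miRNA of hepatocytes, was detected on all 8 arrays. After division by the scale factor its log2 signals were 14.57, 15.99, 15.02 and 15.93 on db/+ replicates 1 to 4, lowest on the brightest array. In db/db they were 15.42 to 15.55. The source of this spread in db/+ was not tested.

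Detection is the scanner software's own call per miRNA and array, and a spot is well above background by a separate flag. None of the 6 members was detected on db/+ replicate 4, and none had a spot well above background there. miR-200b, miR-200a and miR-203 were each detected on the other 3 db/+ arrays and on all 4 db/db arrays. The remaining 3 were detected on a minority of arrays. miR-429 was detected on 2 of 4 db/+ and 1 of 4 db/db arrays. miR-141 was detected on 2 of 4 db/+ arrays and on 0 of 4 db/db arrays, and miR-200c on 1 of 4 in each strain. The fit over the whole array took the 127 miRNAs that every array of one strain or the other (4 arrays) detected. Of the members, 3 entered it, each through db/db alone.

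**Figure D1:**
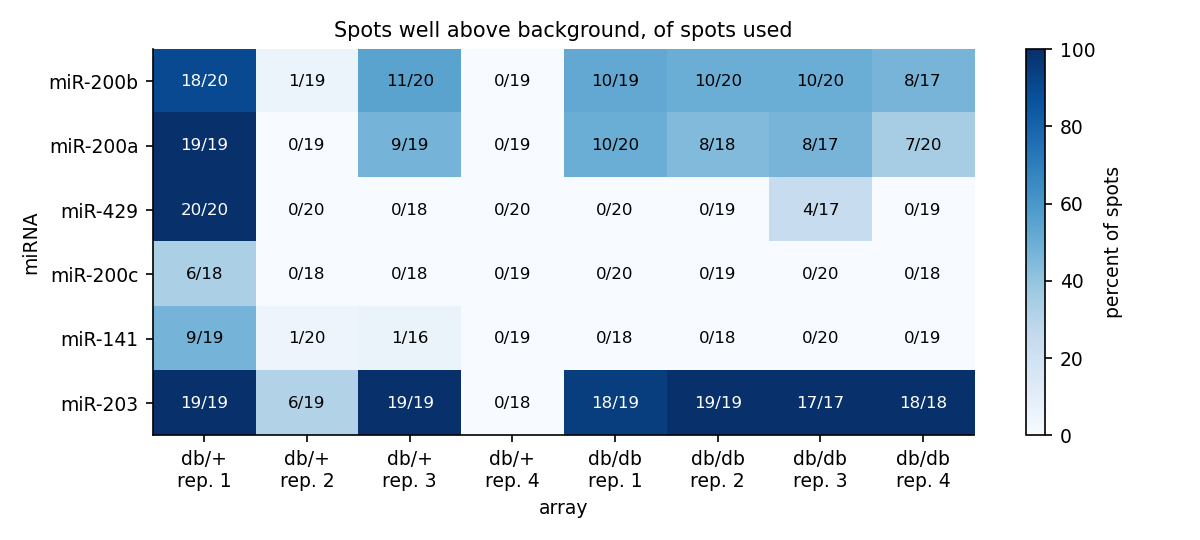
Spots well above background out of the spots used, for each miRNA (rows) on each array (columns), with the color giving the percent of spots. The db/+ replicate 4 column is at 0 for all 6 members, while miR-203 has 72 of 73 spots above background over the 4 db/db arrays.

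Signals below are deposited background-subtracted spot intensities, averaged here over the spots of a probe and then over the probes of a miRNA. They are given first unscaled and then divided by the scale factor, with scaled values under 4.59 set to 4.59 (the floor, 2.20 on the log2 scale). Differences are db/db minus db/+ on the log2 scale. Their standard errors are those of limma, fitted over all 127 miRNAs. Values are not compared between miRNAs, since probes differ in how they bind, except to check the authors' scores against the signal. The summed signals of lists add scaled values of different miRNAs, so the brighter miRNAs weigh more in them.

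miR-200b, of the chromosome 4 cluster, had unscaled signals of 158, 12.0, 42.2 and 4.11 on db/+ replicates 1 to 4. On db/db replicates 1 to 4 they were 34.4, 44.6, 44.2 and 41.2. After scaling, the log2 values were 4.81, 4.41, 4.74 and 4.29 in db/+ and 5.34, 5.39, 5.48 and 5.28 in db/db. All 4 db/db arrays lay above all 4 db/+ arrays after scaling, but before scaling the brightest db/+ array was the highest of the 8. The means were 4.56 ± 0.25 in db/+ and 5.37 ± 0.08 in db/db (SD, n = 4 each). The difference was 0.81 ± 0.16 (SE), or 1.75-fold, but it was -0.31 when normexp replaced the background subtraction and -0.090 with raw median intensities. The normexp run adds an offset of 50 to each spot. Raw medians keep the background, with array medians over all spots of 95.5 to 148. Both amounts exceed the unscaled signal of miR-200b on every array but db/+ replicate 1. Their part in the sign of the difference, here and for the other members, was not tested. Of its spots, 30 of 78 were well above background in db/+ and 38 of 76 in db/db. On db/+ replicates 1 to 4 they were 18 of 20, 1 of 19, 11 of 20 and 0 of 19.

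miR-200a, transcribed from the same cluster and carrying the other seed, had unscaled signals of 124, 10.3, 30.9 and 1.64 in db/+. In db/db they were 26.2, 24.6, 27.6 and 19.6. The scaled log2 values were 4.46, 4.20, 4.29 and 2.96 in db/+ and 4.95, 4.53, 4.80 and 4.21 in db/db. The strains overlapped: db/db replicate 4 lay below db/+ replicates 1 and 3, and db/+ replicate 4, where the miRNA was not detected, lay far below the rest. The means were 3.98 ± 0.69 and 4.62 ± 0.33 (SD, n = 4 each). The difference was 0.64 ± 0.32 (SE), with -0.52 under normexp and -0.24 with raw median intensities. Without db/+ replicate 4 it was 0.30.

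miR-429, the third miRNA of the cluster, shares its seed with miR-200b. Its scaled log2 values were 3.36, 3.78, 3.30 and 4.63 in db/+ and 3.98, 3.83, 4.24 and 4.02 in db/db. The highest of the 8 came from db/+ replicate 4, an array on which it was not detected. The means were 3.77 ± 0.61 and 4.02 ± 0.17 (SD, n = 4 each), and the strains overlapped. All 20 spots well above background in db/+ were on replicate 1, the brightest array, and 4 of 75 were in db/db. It did not enter the fit and so has no fitted error. It was never at the floor, but most arrays did not detect it, so its difference rests mainly on undetected values. Its difference of 0.25 became 0.54 without db/+ replicate 4, -0.65 under normexp and -0.34 with raw median intensities.

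The 2 members of the chromosome 6 cluster were at or near the floor. miR-200c was at the floor on db/+ replicates 1 to 3 and had a scaled log2 value of 3.70 on db/+ replicate 4, where it was not detected. In db/db it was at the floor on 3 arrays and at 2.87 on replicate 3. miR-141 was at the floor on db/+ replicates 1 and 4 and had values of 3.24 and 2.52 on replicates 2 and 3. In db/db its values were 2.42 and 2.47 on replicates 1 and 3, and the floor on the other two. No spot of either miRNA was well above background in db/db, out of 77 for miR-200c and 75 for miR-141. In db/+, 6 of 73 and 11 of 74 spots were, most of them on the brightest array. No difference between the strains is given for these 2 miRNAs, because each was at the floor on some arrays of both strains, as miR-429 was not. Most of their values were at the floor or came from arrays that did not detect them.

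miR-203, from its own locus on chromosome 12, had unscaled signals of 250.5, 20.9, 81.1 and 4.75 in db/+. In db/db they were 55.1, 75.9, 85.0 and 69.6. The scaled log2 values were 5.48, 5.21, 5.69 and 4.50 in db/+ and 6.02, 6.16, 6.42 and 6.04 in db/db. All 4 db/db arrays lay above all 4 db/+ arrays after scaling, and the lowest of the 8 was db/+ replicate 4, where the miRNA was not detected. The means were 5.22 ± 0.52 and 6.16 ± 0.18 (SD, n = 4 each). The difference was 0.94 ± 0.25 (SE), or 1.92-fold, with -0.028 under normexp and 0.097 with raw median intensities. Without db/+ replicate 4 it was 0.70. Spots well above background numbered 44 of 75 in db/+ and 72 of 73 in db/db.

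**Figure D2:**
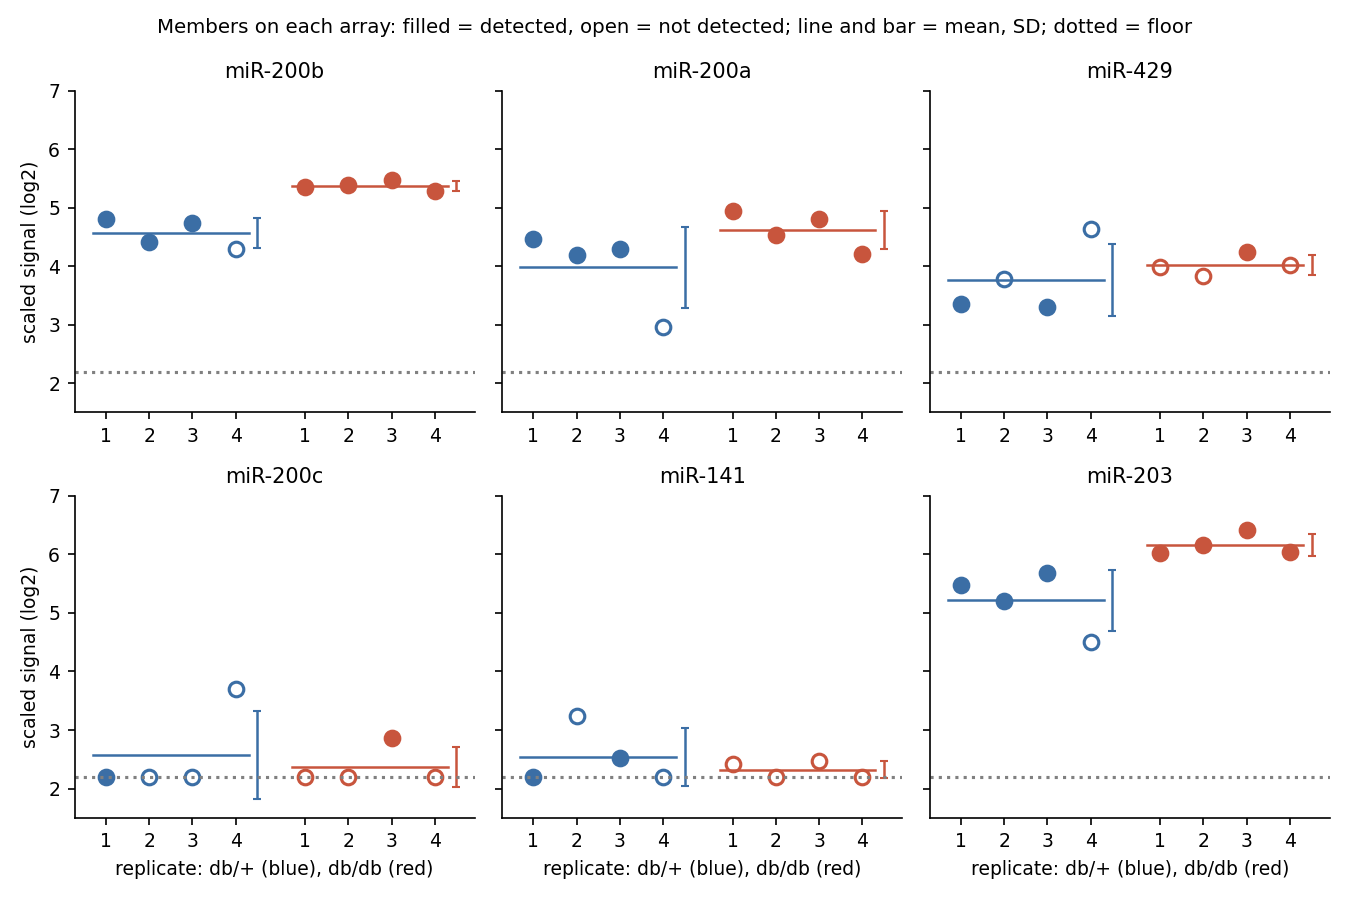
Scaled signal on the log2 scale (vertical axis) of each miRNA on each array (horizontal axis, db/+ in blue and db/db in red, replicates 1 to 4), with filled points where the miRNA was detected; horizontal lines are strain means, bars are SD and the dotted line is the floor. miR-200b and miR-203 do not overlap between the strains (with normexp and its offset of 50 their differences were -0.31 and -0.028), while miR-200c and miR-141 lie at or near the floor.

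With limma and Benjamini-Hochberg adjustment over the 127 miRNAs, 19 were called at an adjusted p under 0.05, which is 15% of those tested: 12 higher in db/db (9.45%) and 7 lower (5.51%). Scaling on the 75th percentile turned this split to 6 higher and 8 lower. miR-200b and miR-203 were among the 12, and miR-200a was not called. The strains did not overlap in either direction for 22.8% of the miRNAs tested, and did not overlap with db/db above for 15.7%, miR-200b and miR-203 among them. Nothing is read from these counts, since the members were chosen on this contrast. The median difference over all 127 was 0.15, and 84 were above 0. Every db/db array detected all 127, so these shares come from a set that no miRNA entered through db/+ alone. Of the 127, 38 were not detected on every db/+ array, the 3 members among them, and all 38 were undetected on db/+ replicate 4. Their median difference was 0.27 and 27 of the 38 were above 0. In a run chosen after seeing the data, the 2 dimmest db/+ arrays, replicates 2 and 4, were left out. The differences were then 0.60 (miR-200b), 0.24 (miR-200a) and 0.58 (miR-203). Each was below its main value, while that of miR-429 rose to 0.69. The part of array brightness in the members' differences was not tested.

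**Figure D3:**
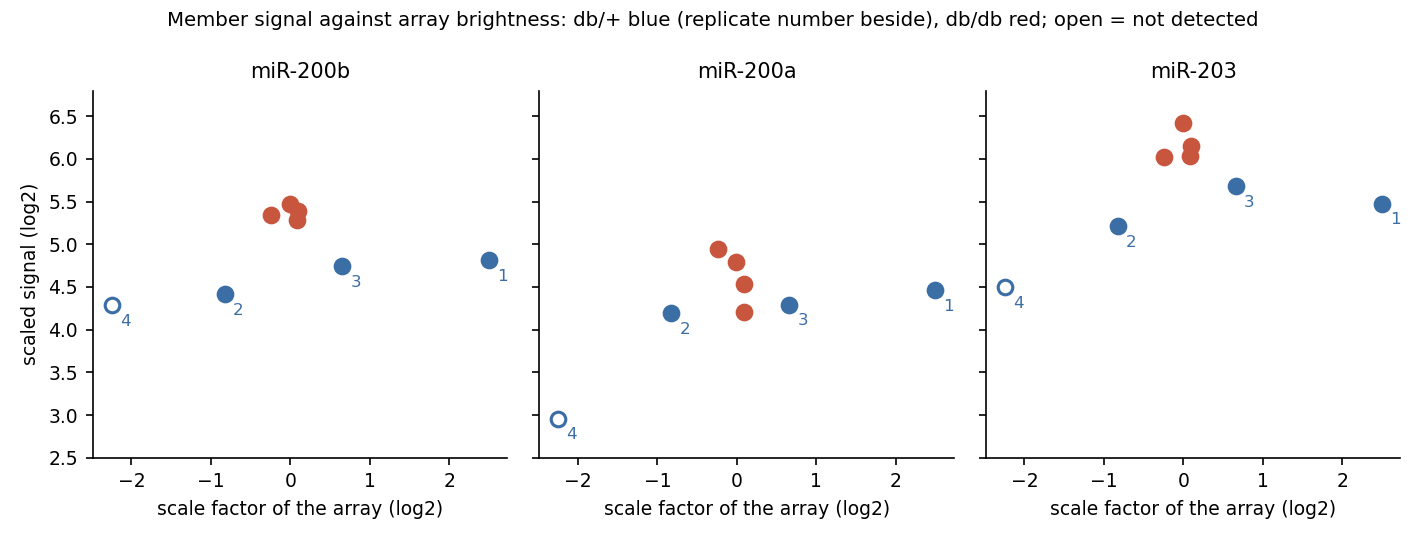
Scaled signal (vertical axis, log2) against the array's scale factor (horizontal axis, log2) for the 3 members that entered the fit, db/+ in blue with the replicate number beside and db/db in red; open points were not detected. The 4 db/db arrays have nearly equal factors, 0.847 to 1.06 before log2, while the db/+ arrays span 0.210 to 5.63. The 2 dimmest db/+ arrays, replicates 2 and 4, give the 2 lowest values of each miRNA, with replicate 4 the lowest.

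Each member is read by 2 probes whose targets differ by 1 base in length, and both probes of miR-200b, miR-200a and miR-203 gave positive differences. They were 0.65 and 0.76 for miR-200b (16 and 17 bases), 0.52 and 0.42 for miR-200a (17 and 18 bases) and 1.02 and 0.91 for miR-203 (17 and 18 bases). For the 16-base probe of miR-200b and the 17-base probe of miR-200a, 2 of 4 db/+ arrays were at the floor. In db/db, 0 of 38 and 0 of 39 of their spots were well above background. The differences of these probes, 0.65 and 0.52, thus rest on signal near background and partly on the floor. The probes of miR-429 gave 0.53 (18 bases) and 0.061 (19 bases). The 2 probes of a miRNA share the same RNA, so they are not replicates. The spread between replicate spots on 1 array differed by probe. In db/db the coefficient of variation was 3.01% to 8.81% for the 17-base probe of miR-200b and 33.0% to 52.3% for its 16-base probe. It was 7.25% to 17.1% and 28.4% to 60.6% for the 18-base and 17-base probes of miR-200a. For miR-203 it was 3.49% to 8.83% (18 bases) and 5.13% to 15.4% (17 bases).

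**Figure D4:**
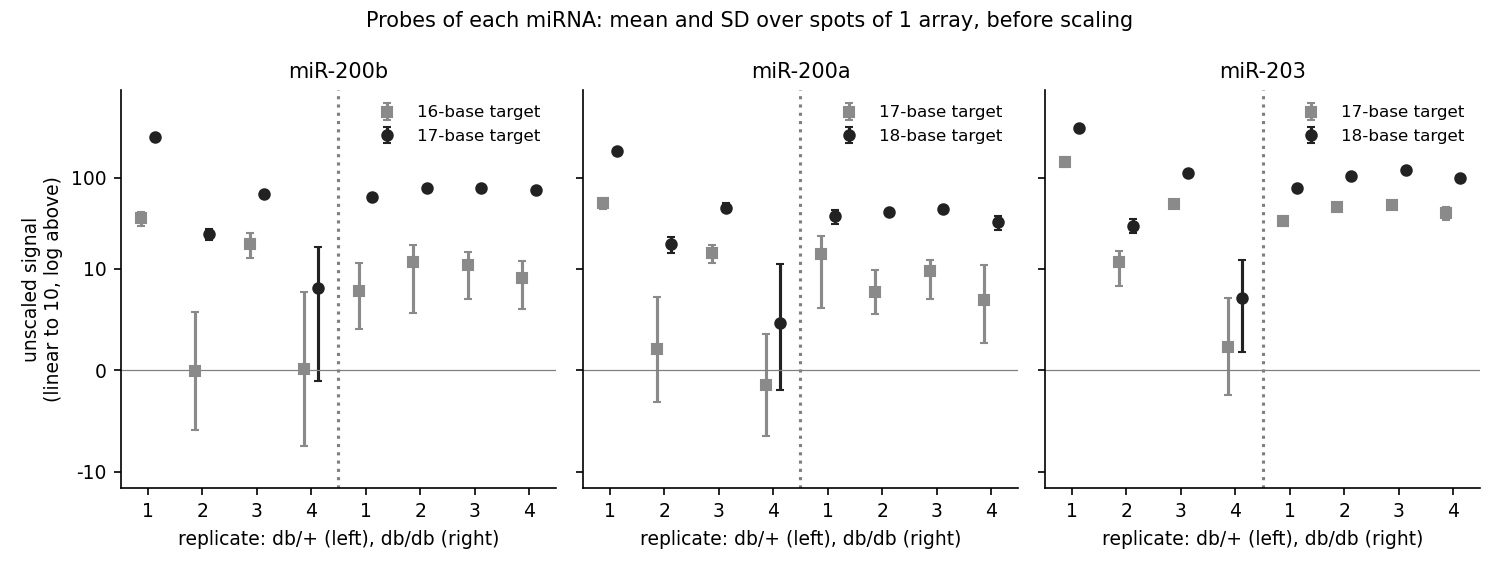
Mean signal of each probe (points) and its SD over the replicate spots of 1 array (bars), before scaling, on an axis that is linear up to 10 and logarithmic above. On db/+ replicate 4 the longer-target probes are at 8.10 (miR-200b), 4.71 (miR-200a) and 7.17 (miR-203), with bars nearly as long or longer, and on the db/db arrays they lie between 32.3 and 119.7.

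The other strand of the hairpin is on the array for 5 of the members: miR-200a*, miR-200b*, miR-200c*, miR-141* and miR-203*. These passenger strands are usually degraded when the mature strand is loaded. All 5 were detected on 0 of 8 arrays, stood at the floor on every array and had no spot well above background. The array therefore gives no second reading of the members' hairpins.

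The deposited scores of the authors hold 139 miRNAs, and miR-200b, miR-200a and miR-203 are the members among them. In the authors' deposited table miR-200b had scores of 1.23, 1.28, 1.32 and 0.68 in db/+ and 1.44, 1.48, 1.47 and 1.39 in db/db. The scores of miR-203 there were 1.35, 1.30, 1.41 and 0.90 in db/+ and 1.43, 1.48, 1.51 and 1.37 in db/db. In these scores db/+ replicate 4 was the lowest of the 8 arrays for both, and for miR-203 the strains overlapped. The most common slope of the scores against the scanner signal is that of a logarithm of base 20, an estimate from the data. The members did not all follow that line. On db/db replicate 1 the scanner software's total signal was 75.7 for miR-203 and 47.3 for miR-200b, but their scores were 1.426 and 1.444. Multiplied as if base 20 held throughout, the differences were 1.37 ± 0.58 for miR-200b, 1.26 ± 0.55 for miR-200a and 0.89 ± 0.47 for miR-203 (SE, limma). None of the 3 was called. These are rescaled score differences and cannot be read as log2 fold changes.

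Over the 8 arrays, the miRNAs whose scaled values ran most like those of a member are given as a description. All values of an array share its scale factor, and any difference between the strains enters each correlation. For miR-200b they were miR-676 (Pearson r = 0.961), miR-203 (0.947) and miR-125b-5p (0.940). For miR-203 they were miR-31* (0.981), miR-194 (0.956) and miR-200b (0.947). For miR-200a they were miR-143 (0.927), miR-31* (0.907) and miR-214 (0.893). miR-200b and miR-200a, which lie in the same cluster, had r = 0.764 over the 8 arrays and 0.658 without db/+ replicate 4. Without that array miR-200a and miR-203 had 0.604, and miR-200b and miR-203 had 0.963.

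Other miRNAs of epithelium and of the other liver cells were read beside the members. Of 9 bile duct and other epithelial miRNAs, 6 were detected on at least 1 array, 3 were tested and 1 was called, miR-31, which was higher in db/db by 1.09 ± 0.17 (SE, limma adjusted p = 0.0032). miR-205 and miR-375, which mark squamous and endocrine epithelium, and miR-7b were not detected on any array. The summed signal of this list was 7.41 to 7.66 on the log2 scale in db/+ and 7.96 to 8.33 in db/db. miR-31 is part of that sum, and the other 2 tested, miR-7a and miR-210, had differences of 0.36 and 0.22 that were not called. In a whole liver, more cells of a type and more RNA per cell cannot be told apart.

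Of 8 hepatocyte miRNAs all 8 were tested and 0 were called by limma or by SAM, 1 having an unadjusted p under 0.05, and their median difference was 0.12. The summed signal of the list was 15.15 to 16.33 in db/+ and 15.87 to 15.98 in db/db. Of 6 stellate and smooth muscle miRNAs on the array 4 were tested, with 0 called by either tool, 1 at an unadjusted p under 0.05 and a median of 0.21. The summed signal of that list went the other way from its median, with 9.51 to 10.58 in db/+ and 9.21 to 10.27 in db/db, and its miR-29b had means of 10.14 and 9.45. The 3 endothelial miRNAs tested had 0 called by either tool, 0 at an unadjusted p under 0.05 and a median of 0.10, and their list summed to 10.60 to 11.16 in db/+ and 10.77 to 11.07 in db/db. Of 4 leukocyte miRNAs tested, miR-142-3p and miR-223 were called lower in db/db, and the list's summed signal was 9.01 to 9.57 in db/+ and 8.33 to 8.71 in db/db. The erythroid list had 1 miRNA tested, miR-451, with 0 called by either tool and 0 at an unadjusted p under 0.05, and summed to 9.68 to 10.96 in db/+ and 10.28 to 11.13 in db/db. The part of these lists in the members' differences was not tested.

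The transition from epithelial to mesenchymal cells, which the miR-200 family opposes, is driven in part by TGF-beta. Of 11 other miRNAs tied to it, 7 were tested: miR-34a was called higher, miR-21, a TGF-beta-induced miRNA, was called lower, and the median difference was -0.51 against 0.15 over all miRNAs tested. That median is the value of miR-29c, and miR-29a (-0.43) and miR-29b (-0.69) were also among the 7. None of these miR-29 miRNAs was called. That list summed to 14.25 to 14.83 in db/+ and 13.90 to 14.02 in db/db, with miR-21 (means 13.73 and 12.95) part of the sum. The list was not sorted by direction of response, so its median and sum do not measure the transition. miR-205 and miR-9 of that list were not detected on any array. The 4 muscle and 4 pancreas miRNAs were not detected on any array, 1 of 3 neural miRNAs was detected on at least 1, and of the skin list beyond miR-203, miR-31 was called and miR-205 was not detected.

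How far the 3 fitted members depended on the processing was read over 33 alternatives for each. miR-200b lay between -0.31 and 1.37 and was above 0 in 31, miR-200a lay between -0.52 and 1.26 and was above 0 in 31, and miR-203 lay between -0.028 and 1.10 and was above 0 in 32. The 1.37 and 1.26 come from the authors' scores. Alternatives that changed only the filter, the test (other than array weights) or lowered the floor gave the main differences again. So did the scanner software's total signal. These repeats are among the 33, so the counts above 0 do not measure how robust the signs are. With 1 array left out at a time, miR-200b lay between 0.72 and 0.89 and stayed called each time. miR-203 lay between 0.70 and 1.10, and its call was lost in 5 of those 8 fits: without db/+ replicate 2 and without each db/db array.

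**Figure D5:**
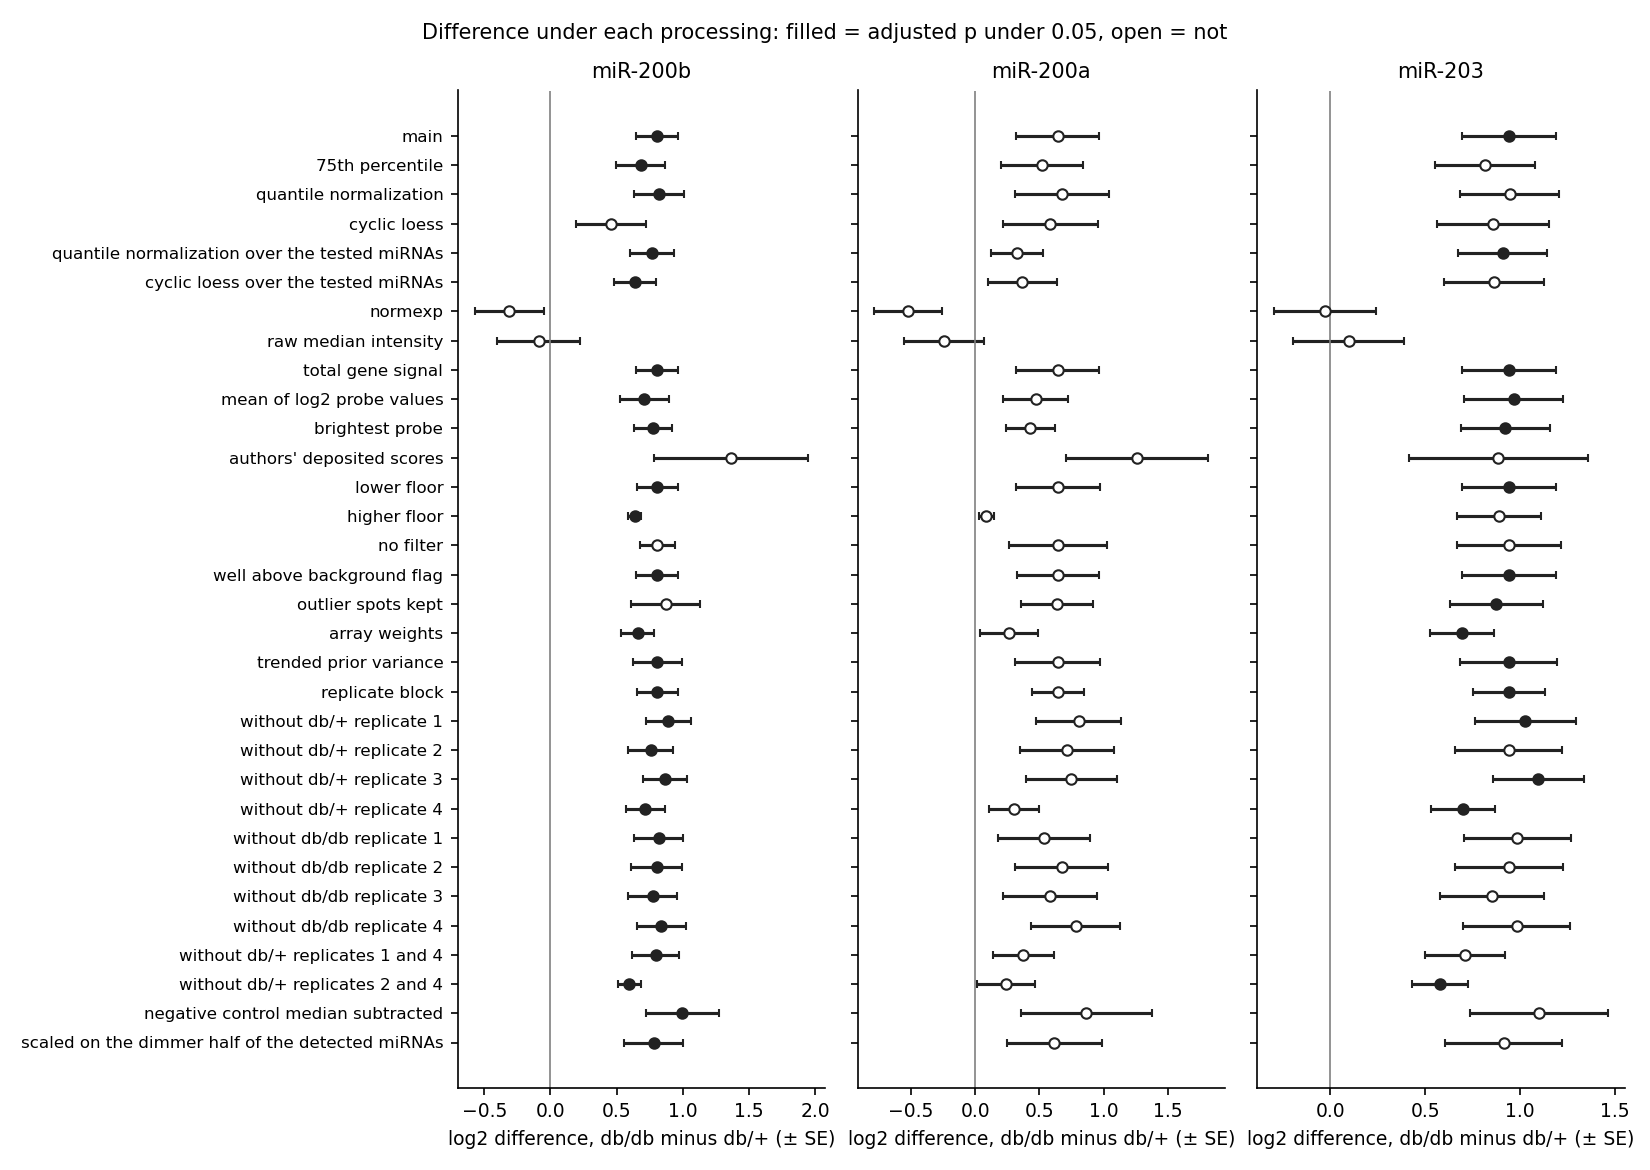
Difference db/db minus db/+ on the log2 scale (horizontal axis) with its SE under each processing (vertical axis) for the 3 fitted members; filled points have an adjusted p under 0.05. The values below 0 come from normexp with its offset of 50 (miR-200b at -0.31, miR-200a at -0.52, miR-203 at -0.028) and raw median intensity, which keeps the background (miR-200b at -0.090, miR-200a at -0.24). Unscaled arrays and SAM are not drawn.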

How the data were processed

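Total RNA from liver (100 ng for each of 8 arrays) was labelled with Cy3 and hybridised to Agilent mouse miRNA arrays with 1 colour, per the labels' protocols. Strain, db/+ or db/db, came from the labels. Intensity values came, per the file headers, from Feature Extraction 9.5.3.1 (the series text names another version of this Agilent software); they had been background-subtracted and not scaled between arrays. Flags of 0 or 1 for detection, background and outliers are also deposited there. The authors deposited a log-transformed score per miRNA, whose base is not given in the sources used here; 28 of 99 to 90 of 139 miRNAs per array lay within 0.01 of the base 20 line. The deposited series table holds raw median intensity: its 12493 rows per array match the scanner medians exactly.

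Control spots and outlier spots (3.42% to 4.84% of 11540) were left out, no spot was saturated, and spots, then probes, were averaged. Arrays were scaled, floored and converted to log2 as given above. Strains were compared with limma 3.58.1 in R 4.3.3, with Benjamini-Hochberg adjustment. The method was tested on simulated data with equal spread in both strains and no floor, scale factors or detection filter. That test does not cover these features of the arrays. The number of arrays limits the precision. SAM was reimplemented with 70 label permutations. The members and lists were chosen with earlier results of these data known. Named miRNAs are the 6 members, their passenger strands and the 3 miRNAs most correlated with each fitted member. Up to 3 per list were also named, by mean signal. miR-34a, miR-29c and the undetected markers were named after their values were seen. Alternatives changed the scaling, background, probe summary, floor, filter, test and arrays. The 2 shared replicate numbers, 3 and 4, were not taken to pair the samples. Deviations from the strain means correlated at 0.036 and 0.307, which cannot decide it without the values for unmatched arrays. Arrays with equal replicate numbers were in the same slide column.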

Additional observations from a re-analysis of the deposited data

Results flagged for a closer look

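miR-200c stood out in both strains because 1 array lay above 3 arrays that were all at the floor of 2.20. In db/+ the array was replicate 4, with a scaled log2 value of 3.70, and miR-200c was not detected there. In db/db it was replicate 3, with 2.87, where it was detected but no spot was well above background. With 3 values equal, the gap fills the whole range by construction. Chance marks about 1 in 20 groups of 4, and 16 such groups were examined.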

How the results depend on the processing

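Quantile normalization and cyclic loess were run first over all mouse miRNAs, as planned. Runs over the tested miRNAs alone were added after those values were seen, and they favour the members' calls. Also chosen after seeing the data were the runs without db/+ replicates 2 and 4, with the negative control median subtracted, and scaled on the miRNAs dimmer than the median of those detected on every array.

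miR-200b was 0.46 with cyclic loess, 0.68 without scaling, 0.81 without a filter and 0.87 with outlier spots kept, each not called. In the authors' scores, read at base 20, it was 1.37 and not called. It reversed to -0.31 with normexp (offset 50) and -0.090 with raw medians. miR-200a reversed to -0.52 and -0.24 in these 2. miR-203 lost its call with the 75th percentile (0.82), quantile normalization (0.95), cyclic loess (0.86, and 0.86 over the tested miRNAs), no scaling (0.86), raw medians (0.097), the authors' scores (0.89), the higher floor (0.89), no filter (0.94), without db/+ replicates 1 and 4 (0.71), with the negative controls subtracted (1.10) and scaled on the dimmer miRNAs (0.91), and reversed to -0.028 with normexp. miR-429 moved to -0.65 with normexp and -0.34 with raw medians. Differences of miR-200c and miR-141 are not given, since each was floored on some arrays of both strains and most of their values were floored or undetected.

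The 19 miRNAs called became 6 with cyclic loess, 0 without scaling (limma; 1 at an unadjusted p under 0.05, 4 by SAM), 2 with normexp, 1 with raw medians, 3 in the authors' scores, 12 with the higher floor, 4 without a filter, 42 with array weights, 12 without db/+ replicates 1 and 4, and 32 without replicates 2 and 4, where miR-429 was called as well. Of the members, 2 were called; 0 were with cyclic loess, no scaling, normexp, raw medians, the authors' scores and no filter (limma; 1, 0, 0, 0, 1 and 2 at an unadjusted p under 0.05), while SAM on the scaled values called 2. The number was 1 with the 75th percentile, quantile normalization, cyclic loess over the tested miRNAs, the higher floor, outlier spots kept, without replicates 1 and 4, negative controls subtracted and scaling on the dimmer miRNAs.

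Leaving out 1 array at a time gave 11 to 20 calls in all, with 11 without db/db replicate 2 and 12 without replicate 3, and 1 to 2 members called. miR-200b ranged from 0.72 to 0.89, miR-200a from 0.30 to 0.80, miR-203 from 0.70 to 1.10 and miR-429 from 0.096 to 0.54. With the replicate numbers as a replicate block, 18 miRNAs and 2 members were called, and no member's call changed. The median difference over the tested miRNAs, 0.15, was 0.02 with the 75th percentile and -0.18 with normexp. Scaling on the median of all mouse miRNAs could not be run, since it was at or below 0 on some arrays, and none of the members was tested among miRNAs detected on all 8 arrays. Signal over background limits every member on db/+ replicate 4. It also limits miR-200b and miR-200a on db/+ replicate 2, where they were detected but had 1 of 19 and 0 of 19 spots well above background.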
